A study of Mus musculus with 4 samples.

Results

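The collagen genes were taken as all records whose gene symbol has the form Col, a type number, a and a chain number, which gave 49 transcript records of 43 genes among 36065 records of 27267 genes. Of the 43 genes, 11 encode fibrillar chains, 6 encode the type IV chains of basement membranes and 26 encode minor collagens. The RNA came from cultured cardiomyocytes, the heart muscle cells, of CD1 mouse pups taken on postnatal day 1, and 1 library was sequenced for each of 4 conditions. The cells had received the mimic hsa-miR-590-3p, the mimic hsa-miR-199a-3p, the control mimic cel-miR-67 (a microRNA of the nematode Caenorhabditis elegans) or a mock transfection (mock). Mimics were used at 50 nM by reverse transfection with a lipid reagent, and all cells were collected 72 h later. The 4 libraries held between 31638930 and 38745528 reads assigned to transcripts, of which 67.6% to 68.7% were placed in a single record. Because each condition is 1 library, no significance test was possible and no difference below has a replicate check. The comparison asks how transcript levels 72 h after transfection differed between these conditions. The measurements with both microRNAs are set against the same control libraries, so their ratios are not independent of each other.

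Collagens are matrix proteins whose chains, rich in evenly spaced glycines, wind around each other into a stiff helix. Fibrillar collagens assemble outside the cell into the fibrils that give the heart wall its tensile strength, and in the heart they come mainly from fibroblasts. Type IV collagen forms the sheet-like network of basement membranes around muscle cells and capillaries. The minor collagens link these structures, form beaded or hexagonal networks or span the cell membrane. The chain genes of type IV lie in head-to-head pairs, and Col4a1 and Col4a2 share a promoter region. RefSeq (GRCm38.p6) places their annotated starts 21 bases apart on opposite strands. The transcripts overlap at these starts, so that the bases before each start lie within the other gene. Promoter windows of 250 bases before to 50 after the start share 78 bases in this pair. The windows of this pair are shown because both genes differed between the 2 controls by nearly the same ratio, given below. Those of Col3a1, the fibrillar gene with the largest ratio above both controls among the abundant chains, and of Col1a2, a chain of type I collagen, are set beside them. Whether these promoters have a part in any ratio was not tested. Capitals mark the CCAAT box (CCAAT), the GC box (GGGCGG) and the TATA box (TATAAA), each searched on both strands, where matches may overlap.
Col4a1 (chr8:11312777-11313076, minus strand): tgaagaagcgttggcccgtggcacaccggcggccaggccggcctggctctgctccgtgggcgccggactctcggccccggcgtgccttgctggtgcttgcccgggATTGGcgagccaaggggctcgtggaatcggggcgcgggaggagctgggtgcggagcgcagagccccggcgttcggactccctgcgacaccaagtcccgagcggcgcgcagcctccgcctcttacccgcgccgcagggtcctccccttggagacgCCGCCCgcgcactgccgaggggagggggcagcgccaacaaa
Col4a2 (chr8:11312555-11312854, plus strand): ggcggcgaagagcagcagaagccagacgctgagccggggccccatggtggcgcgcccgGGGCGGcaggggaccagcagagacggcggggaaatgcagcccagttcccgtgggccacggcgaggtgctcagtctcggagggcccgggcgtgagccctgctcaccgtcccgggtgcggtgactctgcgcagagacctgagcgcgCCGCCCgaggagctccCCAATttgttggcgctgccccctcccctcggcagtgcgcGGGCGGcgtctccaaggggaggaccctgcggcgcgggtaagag
Col3a1 (chr1:45311288-45311587, plus strand): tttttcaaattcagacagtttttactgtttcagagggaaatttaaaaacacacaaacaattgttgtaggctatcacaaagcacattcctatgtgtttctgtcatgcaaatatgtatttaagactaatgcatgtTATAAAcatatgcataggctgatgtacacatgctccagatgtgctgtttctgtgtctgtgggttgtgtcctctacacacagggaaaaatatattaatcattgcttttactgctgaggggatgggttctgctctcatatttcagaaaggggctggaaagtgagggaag
Col1a2 (chr6:4505368-4505667, plus strand): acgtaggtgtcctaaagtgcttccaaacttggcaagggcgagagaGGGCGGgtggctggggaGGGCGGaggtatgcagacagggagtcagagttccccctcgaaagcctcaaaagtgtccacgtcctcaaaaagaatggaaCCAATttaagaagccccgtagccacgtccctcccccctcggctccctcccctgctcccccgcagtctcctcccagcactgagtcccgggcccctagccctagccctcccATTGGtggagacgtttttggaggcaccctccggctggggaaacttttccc

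The Col4a1 window held CCAAT and GGGCGG at 1 place each, the Col4a2 window held CCAAT at 1 place and GGGCGG at 3, and neither held TATAAA. Part of these places is the same DNA, since the windows overlap. The Col1a2 window held CCAAT at 2 places and GGGCGG at 2, while the Col3a1 window held TATAAA at 1 place and neither of the others. Among all 32851 promoter windows of the table, 37.4% held CCAAT, 35.7% GGGCGG and 13.6% TATAAA. Of the 38 windows of the 35 collagen genes that the table covers, 13 held CCAAT, 23 GGGCGG and 5 TATAAA. The mouse form of one of the tested microRNAs, mmu-miR-199a-3p, is encoded at Mir199a-2 (chr1:162217883-162217904, plus strand) and Mir199a-1 (chr9:21496498-21496519, minus strand). Its mature sequence in RefSeq is given here with the seed, bases 2 to 8, in capitals.
mmu-miR-199a-3p: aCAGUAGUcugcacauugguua

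Collagen transcripts made up a similar part of the transcriptome in all libraries. Their share of reads was 2.30% in the hsa-miR-590-3p library, 2.36% in the hsa-miR-199a-3p library, 2.32% in the cel-miR-67 library and 2.02% in the mock library. The exact binomial (Clopper-Pearson) 95% interval of the hsa-miR-590-3p share is 2.299% to 2.309%, that of hsa-miR-199a-3p 2.356% to 2.366%, that of cel-miR-67 2.312% to 2.322% and that of mock 2.020% to 2.030%. All intervals given here reflect the counting of reads alone, because amplified reads that carry no molecular barcode are not separate molecules. The mock library was thus the lowest and the other libraries lay close together. After scaling by TMM (a method that sets libraries to a common level from the bulk of genes), the summed collagen level with hsa-miR-590-3p was 0.946 times that with cel-miR-67 and 1.07 times that in mock. Under hsa-miR-199a-3p the factors were 0.957 and 1.08. The makeup of this sum varied more than its size. Type IV chains held 34.7% of collagen reads with hsa-miR-590-3p and 30.7% with hsa-miR-199a-3p, against 41.0% with cel-miR-67 and 33.3% in mock. Fibrillar chains held 56.8% with hsa-miR-590-3p and 59.8% with hsa-miR-199a-3p, against 49.9% with cel-miR-67 and 57.9% in mock. These shares add up to a whole, so that one falls where another is larger. As summed levels, type IV chains with cel-miR-67 stood at 1.38 times mock and fibrillar chains at 0.970 times mock. In bulk RNA fewer cells of a type and less RNA per cell cannot be told apart, which holds for every ratio given here.

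**Figure D1:**
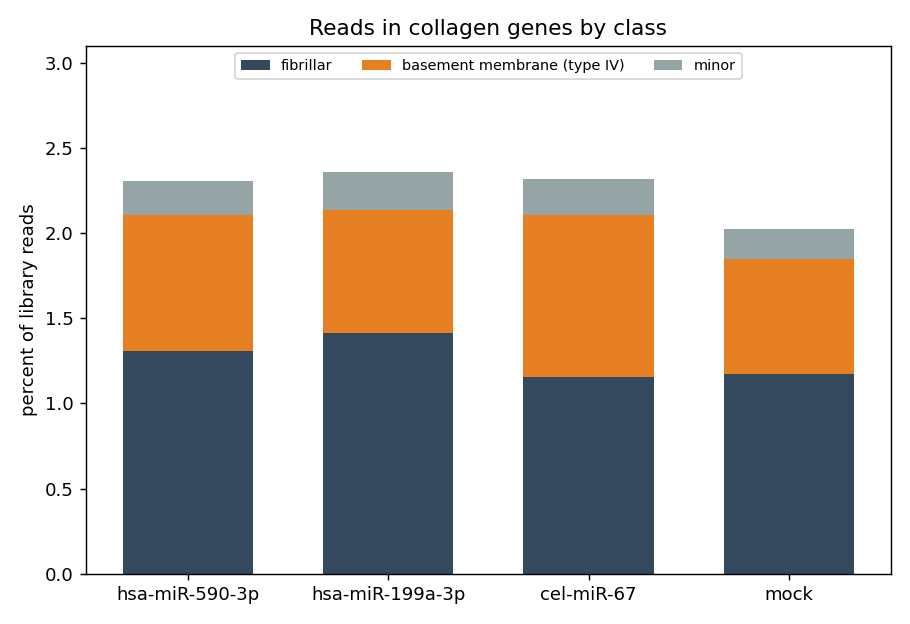
Percent of each library's reads (y axis) that lay in fibrillar, basement-membrane (type IV) and minor collagen genes, 1 stacked bar per library. The total is 2.30%, 2.36% and 2.32% in the libraries given a mimic and 2.02% in mock, and the type IV segment is largest with cel-miR-67.

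Of the 43 genes, 29 reached a mean of at least 1 CPM (read counts scaled to the size of the library) over the 4 libraries and were compared, as 29 of 13502 such genes in all. None of the 29 was at least 2-fold away from both controls in the same direction with hsa-miR-590-3p, and none was with hsa-miR-199a-3p. Among all 13502 genes, 0.356% met this criterion as higher and 0.23% as lower with hsa-miR-590-3p, and 2.4% and 2.34% with hsa-miR-199a-3p. Between cel-miR-67 and mock 1 collagen gene, Col19a1, was at least 2-fold higher with cel-miR-67 and none was lower, where 0.652% of all genes were higher and 1.33% lower. Between the 2 microRNA libraries no collagen gene differed 2-fold, where 2.71% of all genes were higher and 1.87% lower. The log2 ratios of the 29 genes ran from -0.92 to 0.77 for hsa-miR-590-3p against cel-miR-67 and from -0.45 to 1.28 against mock. For hsa-miR-199a-3p they ran from -1.56 to 0.95 against cel-miR-67 and from -0.74 to 1.39 against mock. Between the controls, cel-miR-67 over mock, they ran from -0.75 to 1.75. Taken against 1 control alone, Col27a1 was at least 2-fold higher with hsa-miR-590-3p than in mock (1.16% of all genes) and none was lower (0.681%), while against cel-miR-67 none was higher (1.67%) or lower (0.681%). With hsa-miR-199a-3p, Col4a3 and Col7a1 were at least 2-fold lower than with cel-miR-67 (3.67% of all genes) and none was higher (3.98%), and Col6a2 and Col6a6 were higher than in mock (3.95%) and none was lower (3.73%).

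**Figure D2:**
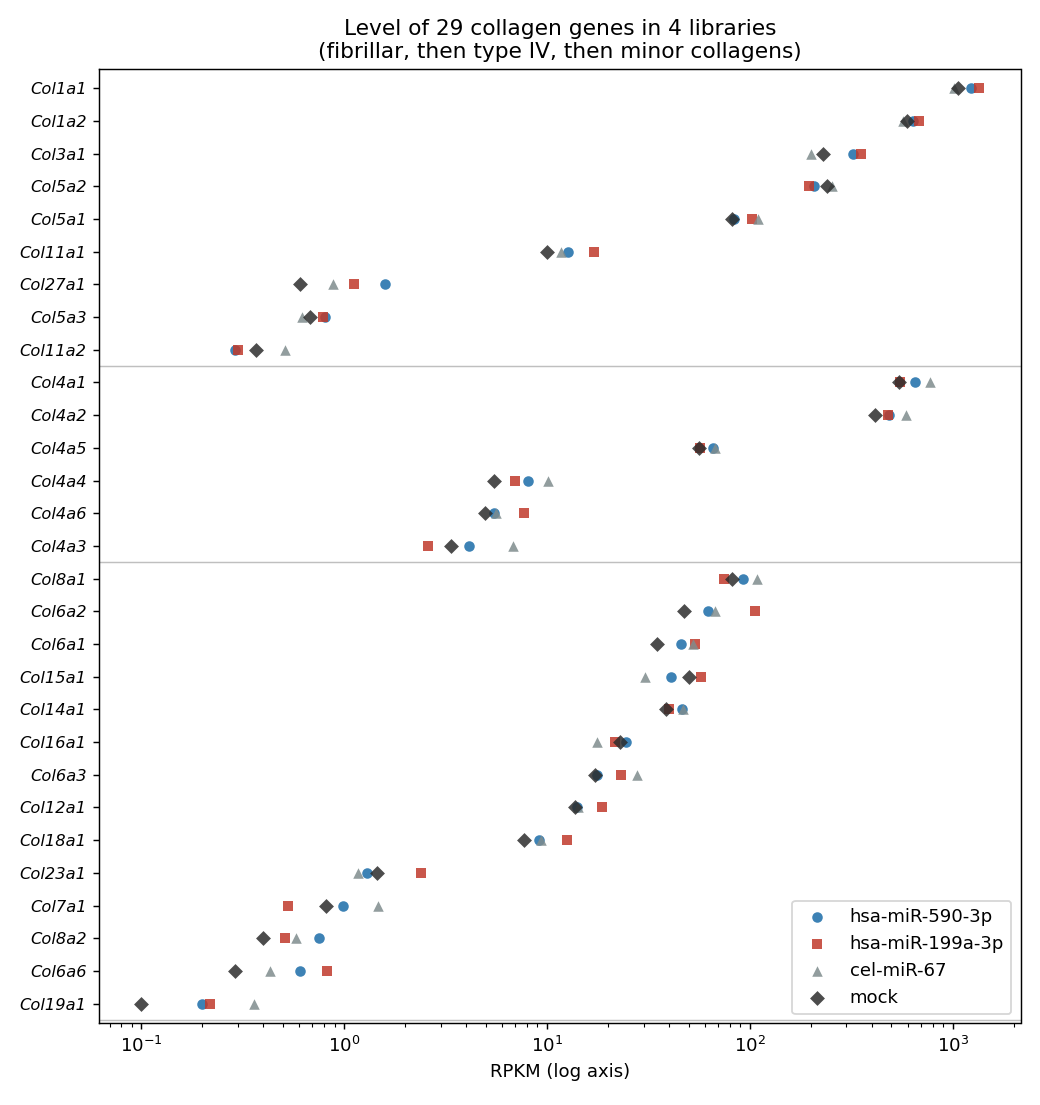
Level of the 29 collagen genes compared, as RPKM deposited by the authors (x axis, log scale), 1 symbol per library. Levels span more than 3 decades, from Col1a1 to Col19a1, and the symbols of a gene mostly lie close to each other.

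Col1a1 and Col3a1, of type I and type III collagen, were modestly higher in both microRNA libraries than in both controls, whereas Col5a2, of type V, was lower in both. The second type I chain, Col1a2, was above both controls with hsa-miR-199a-3p only. Of 9 fibrillar genes compared, 5 lay above both controls and 3 below both with hsa-miR-590-3p, and 6 above and 2 below with hsa-miR-199a-3p. Over all genes 35.6% lay above both controls and 36.6% below both with hsa-miR-590-3p, and 40.2% and 41.9% with hsa-miR-199a-3p. Median log2 ratios of the 9 genes were 0.09 against cel-miR-67 and 0.12 against mock for hsa-miR-590-3p, and 0.25 and 0.21 for hsa-miR-199a-3p, where the medians of all genes were -0.00, -0.01, -0.00 and -0.01. Col1a1, the α1 chain of type I collagen and the most abundant collagen per length, had 200180 reads (5663 CPM) with hsa-miR-590-3p and 245219 reads (6089 CPM) with hsa-miR-199a-3p, against 164754 reads (4926 CPM) with cel-miR-67 and 158712 reads (5223 CPM) in mock. Both microRNA libraries were above both controls, and the largest ratio, hsa-miR-199a-3p over cel-miR-67, was 1.24 (counting interval 1.23 to 1.24). Its partner Col1a2 had 3188 CPM with hsa-miR-590-3p and 3398 CPM with hsa-miR-199a-3p, against 2994 CPM with cel-miR-67 and 3192 CPM in mock. The hsa-miR-590-3p library and mock were level for this chain.

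Col3a1, whose homotrimers form the thin fibrils mixed with type I, had 62040 reads (1755 CPM) with hsa-miR-590-3p and 76567 reads (1901 CPM) with hsa-miR-199a-3p. The controls had 38072 reads (1138 CPM) with cel-miR-67 and 40353 reads (1328 CPM) in mock. The microRNA libraries thus lay above both controls, with log2 ratios of 0.62 and 0.40 against cel-miR-67 and mock for hsa-miR-590-3p and of 0.74 and 0.52 for hsa-miR-199a-3p. Intervals of the ratio to cel-miR-67 were 1.52 to 1.56 and 1.65 to 1.69. Col5a2, a chain of type V collagen, which starts type I fibrils and limits their width, lay the other way. It had 1340 CPM with hsa-miR-590-3p and 1242 CPM with hsa-miR-199a-3p, against 1723 CPM with cel-miR-67 and 1651 CPM in mock, with log2 ratios of -0.36 and -0.30 for hsa-miR-590-3p and -0.47 and -0.41 for hsa-miR-199a-3p. Col3a1 and Col5a2 are neighbouring genes on chromosome 1. The α1 chain of type V, Col5a1, had 689.9 CPM with hsa-miR-590-3p and 829.4 CPM with hsa-miR-199a-3p, against 948.7 CPM with cel-miR-67 and 715.5 CPM in mock, so that the cel-miR-67 library was the highest.

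Of the weaker fibrillar genes, Col27a1, a short-helix chain best known from growing cartilage, had the largest ratio with hsa-miR-590-3p. It had 418 reads with hsa-miR-590-3p (11.8 CPM) and 331 with hsa-miR-199a-3p (8.22 CPM), against 231 with cel-miR-67 (6.91 CPM) and 148 in mock (4.87 CPM). The hsa-miR-590-3p library was the highest and mock the lowest. The log2 ratio of 1.28 to mock (interval of the ratio 2.01 to 2.95) passed 2-fold, while that to cel-miR-67, 0.77 (1.45 to 2.02), did not. Col11a1, the chain that nucleates fibrils together with type V, had 89.8 CPM with hsa-miR-590-3p and 120.0 CPM with hsa-miR-199a-3p, against 88.0 CPM with cel-miR-67 and 76.3 CPM in mock. Log2 ratios were 0.45 and 0.65 with hsa-miR-199a-3p, which was the highest. Col5a3 (log2 ratios of 0.31 and 0.17 with hsa-miR-590-3p, 0.25 and 0.11 with hsa-miR-199a-3p) had counting intervals that include a ratio of 1 in all of these. Col11a2 had 56 reads with hsa-miR-590-3p and 65 with hsa-miR-199a-3p, against 97 with cel-miR-67 and 66 in mock. Its intervals include 1 against mock but not against cel-miR-67.

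**Figure D3:**
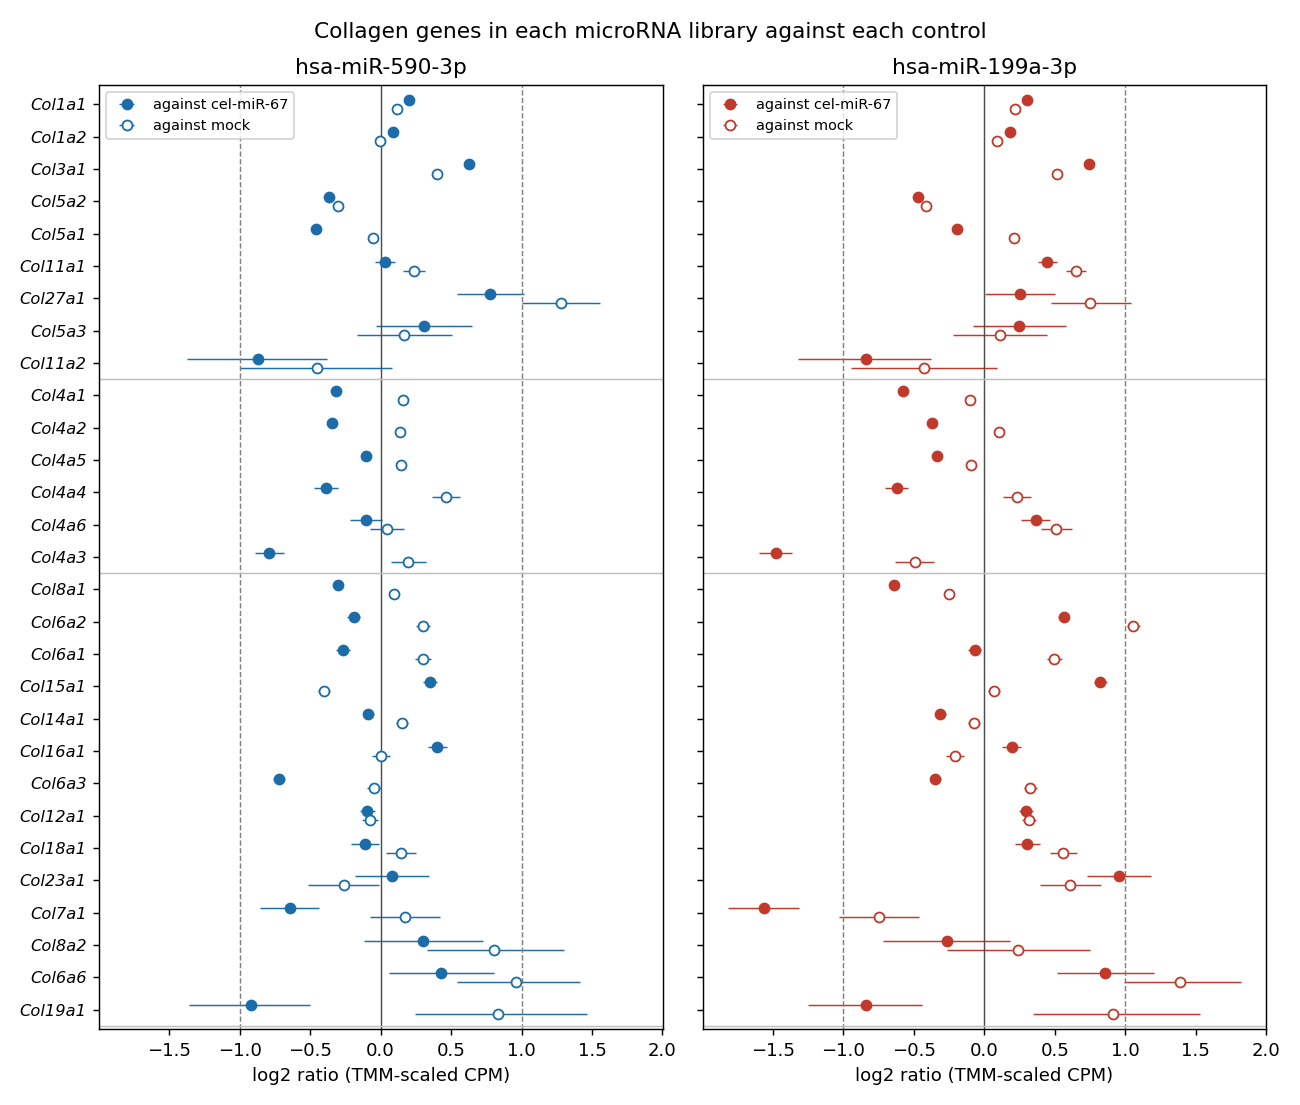
Log2 ratio (x axis) of each of the 29 collagen genes in the hsa-miR-590-3p library (left) and the hsa-miR-199a-3p library (right) against cel-miR-67 (filled) and mock (open), with 95% counting intervals as bars and 2-fold as dashed lines. Col1a1 and Col3a1 lie right of 0 against both controls in both panels, and Col5a2 lies left of 0. For all 6 type IV genes the filled and open points lie on different sides of 0 in the hsa-miR-590-3p panel.

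All 6 type IV genes were higher in the cel-miR-67 library than in mock, which set the ratios of the microRNAs apart according to the control used. The log2 ratios of cel-miR-67 over mock ran from 0.15 to 0.99 with a median of 0.48, where all genes had a median of 0.00, with 50.3% above mock and 49.7% below. Markers of cell types also differed between these controls. With cel-miR-67, 6 of 6 epicardial and mesothelial markers and 6 of 7 endothelial markers were lower than in mock, with medians of -0.41 and -0.31. All 4 macrophage markers past the minimum, at low levels, were lower too, with a median of -0.67, as were 8 of 10 cardiomyocyte markers, with -0.16. Higher were 7 of 10 fibroblast markers and 6 of 8 smooth muscle and pericyte markers, with medians of 0.29 and 0.26. The part of these markers in the type IV difference was not tested. Under hsa-miR-590-3p all 6 type IV genes lay between the controls, where 3764 of all 13502 genes did. The medians of the 6 were -0.33 against cel-miR-67 and 0.15 against mock. Under hsa-miR-199a-3p 40.2% of all genes lay above both controls and 41.9% below both. Of the type IV genes 1 lay above both there, 3 below both and 2 between, with medians of -0.47 and 0.01. The most abundant, Col4a1, had 148569 reads (4203 CPM) with hsa-miR-590-3p and 141439 reads (3512 CPM) with hsa-miR-199a-3p, against 175147 reads (5237 CPM) with cel-miR-67 and 114644 reads (3773 CPM) in mock. Its ratio to cel-miR-67 had an interval of 0.797 to 0.808 with hsa-miR-590-3p and of 0.666 to 0.675 with hsa-miR-199a-3p. Col4a2, which joins it in the common α1α1α2 trimer, had 3041 CPM with hsa-miR-590-3p and 2980 CPM with hsa-miR-199a-3p, against 3858 CPM with cel-miR-67 and 2765 CPM in mock. The cel-miR-67 library was the highest for both chains, at log2 ratios to mock of 0.47 for Col4a1 and 0.48 for Col4a2. These are the genes whose shared promoter is printed above, and its part in the ratios was not tested. Col6a2 and Col6a1, neighbours on the same strand of chromosome 10, had 0.49 and 0.56. Under hsa-miR-199a-3p Col4a1 and Col4a2 parted, with -0.58 and -0.10 for Col4a1 against cel-miR-67 and mock, and -0.37 and 0.11 for Col4a2. Scaled by library totals the log2 ratio of Col4a1 with hsa-miR-199a-3p against mock was 0.01.

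Col4a3, Col4a4 and Col4a5 encode the α3α4α5 trimer, known from the kidney filter, lung and inner ear. Col4a3 had 1225 reads with hsa-miR-590-3p (34.7 CPM) and 864 with hsa-miR-199a-3p (21.4 CPM), against 2003 with cel-miR-67 (59.9 CPM) and 918 in mock (30.2 CPM). Of the 4 libraries that of hsa-miR-199a-3p was the lowest. Its log2 ratio was -1.48 against cel-miR-67 (interval of the ratio 0.330 to 0.388) but -0.49 against mock, and cel-miR-67 itself stood at 0.99 over mock (1.83 to 2.15), just under 2-fold. Col4a4 had 61.7 CPM with hsa-miR-590-3p and 52.5 CPM with hsa-miR-199a-3p, against 80.7 CPM with cel-miR-67 and 44.7 CPM in mock, so that both microRNA libraries lay between the controls. Col4a5 had 419.9 CPM with hsa-miR-590-3p and 356.2 CPM with hsa-miR-199a-3p, against 450.3 CPM with cel-miR-67 and 379.2 CPM in mock. Only 2.20% of its reads were placed in a single record, the rest being shared between its 2 records, and on those reads alone its log2 ratios with hsa-miR-199a-3p were -0.36 and -0.19. Col4a6, the head-to-head neighbour of Col4a5 on chromosome X, which joins it in a trimer of smooth muscle and epithelial basement membranes, had 35.6 CPM with hsa-miR-590-3p and 49.1 CPM with hsa-miR-199a-3p, against 38.1 CPM with cel-miR-67 and 34.4 CPM in mock. It was the only type IV gene of the 6 above both controls with hsa-miR-199a-3p, with 0.36 and 0.51, where Col4a5 had -0.34 and -0.09.

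**Figure D4:**
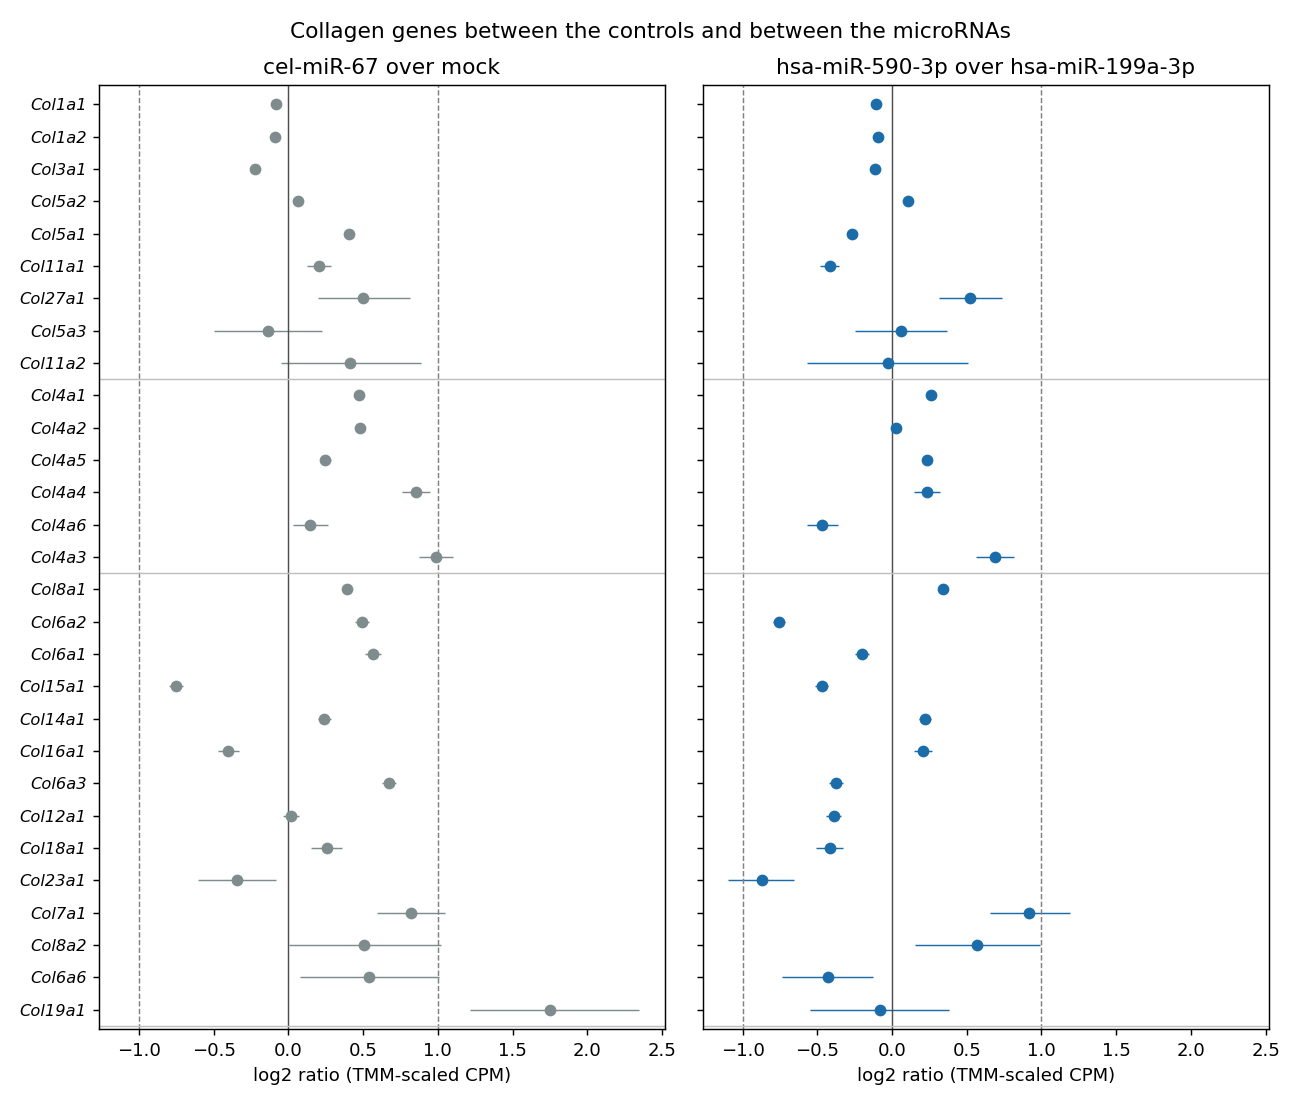
Log2 ratio (x axis) of the 29 collagen genes for cel-miR-67 over mock (left) and for hsa-miR-590-3p over hsa-miR-199a-3p (right), with 95% counting intervals as bars and 2-fold as dashed lines. All 6 type IV genes lie right of 0 between the controls, and Col19a1 alone lies past a dashed line.

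Among 14 minor collagens compared, 3 lay above both controls and 2 below both with hsa-miR-590-3p, and 6 above and 3 below with hsa-miR-199a-3p. Their median log2 ratios were -0.10 and 0.15 for hsa-miR-590-3p and 0.06 and 0.32 for hsa-miR-199a-3p, against cel-miR-67 and mock. Over all genes 35.6% lay above both controls and 36.6% below both with hsa-miR-590-3p, and 40.2% and 41.9% with hsa-miR-199a-3p. Between the controls 11 of the 14 minor collagens were higher with cel-miR-67 than in mock, with a median of 0.44, where 50.3% of all genes were. All 6 genes of the network-forming types VI and VIII that were compared were among the 11.

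Type VI collagen forms beaded filaments around cells, with the α1, α2 and α3 chains in its usual trimer. Col6a2 had 7993 reads with hsa-miR-590-3p (226.1 CPM) and 15387 with hsa-miR-199a-3p (382.1 CPM), against 8637 with cel-miR-67 (258.2 CPM) and 5573 in mock (183.4 CPM). The hsa-miR-199a-3p library was the highest, with log2 ratios of 0.57 against cel-miR-67 and 1.06 against mock (interval of the ratio to mock 2.02 to 2.15). Col6a1 had 179.2 CPM with hsa-miR-590-3p and 205.7 CPM with hsa-miR-199a-3p, against 215.4 CPM with cel-miR-67 and 145.6 CPM in mock, and lay between the controls in both microRNA libraries. Col6a3 had 183.8 CPM with hsa-miR-590-3p and 238.4 CPM with hsa-miR-199a-3p, against 303.0 CPM with cel-miR-67 and 190.1 CPM in mock, and 5.95% of its reads were placed in a single record. On those reads alone its log2 ratio with hsa-miR-590-3p against mock was -0.32, against -0.05 on all reads. Col6a6, a chain that can take the place of α3, had 148 reads with hsa-miR-590-3p and 227 with hsa-miR-199a-3p, against 104 with cel-miR-67 and 65 in mock. Both microRNA libraries were above both controls for it, at 0.43 and 0.96 with hsa-miR-590-3p and at 0.86 and 1.39 with hsa-miR-199a-3p. The interval of the last ratio, that of hsa-miR-199a-3p to mock, was 1.99 to 3.53. Of its reads 53.9% were placed in a single record, and the 0.96 ranged from 0.65 to 1.06 over the alternative settings.

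Col8a1, a network collagen of vessel walls and the most abundant minor collagen per length, had 16368 reads (463.0 CPM) with hsa-miR-590-3p and 14725 reads (365.6 CPM) with hsa-miR-199a-3p, against 19073 reads (570.3 CPM) with cel-miR-67 and 13183 reads (433.8 CPM) in mock. The hsa-miR-199a-3p library was the lowest in CPM, at log2 ratios of -0.64 (interval of the ratio 0.627 to 0.655) and -0.25 (0.823 to 0.863). Col8a2, on 55 to 112 reads per library, had log2 ratios of 0.30 and 0.80 with hsa-miR-590-3p and of -0.27 and 0.24 with hsa-miR-199a-3p. Of the collagens that attach to the surface of fibrils (FACIT), Col12a1 stood at -0.09 and -0.07 with hsa-miR-590-3p and at 0.30 and 0.32 with hsa-miR-199a-3p. Col14a1 stood at -0.09 and 0.15, and at -0.31 and -0.07. Col16a1 stood at 0.40 and 0.00, and at 0.19 and -0.21. Col19a1 had the largest difference between the controls, with 131 reads with cel-miR-67 and 35 in mock, a log2 ratio of 1.75 (interval of the ratio 2.33 to 5.09). The microRNA libraries lay between, with 73 reads with hsa-miR-590-3p and 88 with hsa-miR-199a-3p.

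The multiplexins Col15a1 and Col18a1 encode basement-membrane collagens whose C-terminal pieces, restin and endostatin, inhibit angiogenesis. Col15a1 had 212.2 CPM with hsa-miR-590-3p and 294.1 CPM with hsa-miR-199a-3p, against 166.3 CPM with cel-miR-67 and 280.2 CPM in mock. It was the lowest of the 29 genes between the controls, at -0.75 for cel-miR-67 over mock, opposite in sign to the type IV genes. Col18a1 stood at -0.11 and 0.14 with hsa-miR-590-3p and at 0.31 and 0.56 with hsa-miR-199a-3p, on reads of which 3.71% were placed in a single record. On those reads alone the values were -0.14 and 0.52, and 0.00 and 0.66. Col7a1, the collagen of the anchoring fibrils that hold epithelia to the dermis, had 314 reads with hsa-miR-590-3p (8.88 CPM) and 189 with hsa-miR-199a-3p (4.69 CPM), against 464 with cel-miR-67 (13.9 CPM) and 239 in mock (7.87 CPM). The hsa-miR-199a-3p library was below both controls, at -1.56 (interval of the ratio 0.284 to 0.401) and -0.74, the lowest ratios against each control there among the 29 genes compared. Col23a1, a transmembrane collagen, had 254 reads with hsa-miR-590-3p (7.19 CPM) and 530 with hsa-miR-199a-3p (13.2 CPM), against 227 with cel-miR-67 (6.79 CPM) and 262 in mock (8.62 CPM). The hsa-miR-199a-3p library was the highest for it, at 0.95 and 0.61.

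In the direct comparison, hsa-miR-590-3p over hsa-miR-199a-3p, 13 of the 29 genes were higher and 16 lower, close to the 50.4% and 49.6% of all genes. The class medians were -0.09 for fibrillar, 0.24 for type IV and -0.29 for minor collagens. Col7a1 had the highest log2 ratio, 0.92, followed by Col4a3 with 0.69, while Col23a1 had the lowest, -0.87, followed by Col6a2 with -0.76. All 4 had counting intervals that exclude a ratio of 1.

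The 14 genes below the minimum were Col2a1, Col24a1, Col6a4, Col6a5, Col10a1, Col9a1, Col9a2, Col9a3, Col20a1, Col22a1, Col13a1, Col17a1, Col25a1 and Col28a1, with means of 0.0434 to 0.836 CPM and 0 to 57 reads in any library. They include the cartilage collagens of types II, IX and X. Among them, 2 genes with more than 50 reads in a library would have met the 2-fold criterion with hsa-miR-199a-3p had no minimum been set. The share of all genes that would do so was not computed. Col9a2, a chain of the cartilage FACIT type IX, had 24 reads with hsa-miR-590-3p and 57 with hsa-miR-199a-3p, against 22 with cel-miR-67 and 18 in mock. The hsa-miR-199a-3p library was the highest, at log2 ratios of 1.09 (interval of the ratio 1.29 to 3.70) and 1.24 (1.39 to 4.31). Col13a1, a transmembrane collagen of cell junctions, had 28 reads with hsa-miR-590-3p and 56 with hsa-miR-199a-3p, against 20 with cel-miR-67 and 13 in mock, at 1.20 (1.37 to 4.09) and 1.67 (1.76 to 6.48) for hsa-miR-199a-3p. Col28a1 was the single gene with no read in a library, in that of hsa-miR-199a-3p, which allows up to 0.0745 CPM there, taking 3 reads as the limit.

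Ratios between chains within a library, set per length as RPKM, do not depend on how libraries are scaled. The ratio of Col1a1 to Col1a2, the chains of type I collagen, was 1.94 with hsa-miR-590-3p and 1.96 with hsa-miR-199a-3p, against 1.797 with cel-miR-67 and 1.79 in mock. The microRNA libraries were alike and lay above the controls beyond counting error. Col3a1 stood at 0.262 and 0.264 of Col1a1 in the same 2 libraries, against 0.196 with cel-miR-67 and 0.215 in mock. Col5a2 stood at 0.168 of Col1a1 with hsa-miR-590-3p and 0.145 with hsa-miR-199a-3p, against 0.249 with cel-miR-67 and 0.225 in mock, so that both microRNA libraries lay below both controls. The ratio of Col4a1 to Col4a2 was 1.34 with hsa-miR-590-3p and 1.14 with hsa-miR-199a-3p, against 1.31 with cel-miR-67 and 1.32 in mock. The hsa-miR-199a-3p library was the lowest, and that of hsa-miR-590-3p (interval 1.33 to 1.35) was also above the cel-miR-67 interval (1.30 to 1.32). The hsa-miR-199a-3p library stood apart in the ratio of Col6a2 to Col6a1, with 1.35 with hsa-miR-590-3p and 1.99 with hsa-miR-199a-3p, against 1.28 with cel-miR-67 and 1.35 in mock. Col4a5 to Col4a6 was 12.1 with hsa-miR-590-3p and 7.42 with hsa-miR-199a-3p, against 12.1 with cel-miR-67 and 11.3 in mock. Col4a3 to Col4a4 was 0.509 with hsa-miR-590-3p and 0.371 with hsa-miR-199a-3p, against 0.673 with cel-miR-67 and 0.613 in mock.

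**Figure D5:**
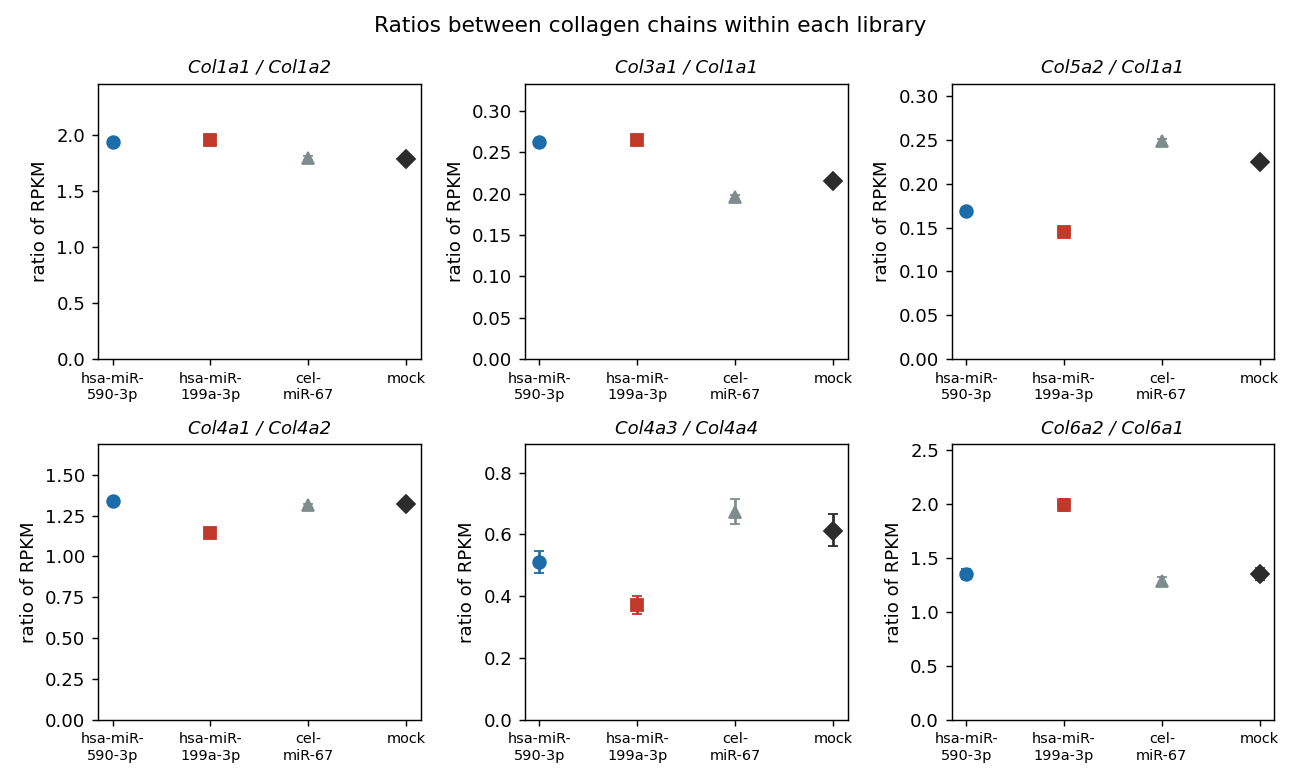
Ratio of the RPKM of 2 collagen chains within each library (y axes from 0), with 95% counting intervals as bars. The ratios of Col3a1 and Col5a2 to Col1a1 separate the microRNA libraries from the controls, while with hsa-miR-199a-3p that of Col4a1 to Col4a2 is the lowest and that of Col6a2 to Col6a1 the highest of the 4.

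The genes that make, bind or degrade collagen are read against the same shares of all genes. Of all genes 0.356% met the criterion as higher and 0.23% as lower with hsa-miR-590-3p, and 2.4% and 2.34% with hsa-miR-199a-3p. A count of 0 or 1 in a list is thus near the background. Of 30 genes of collagen biosynthesis and crosslinking, none met the criterion under either microRNA. Under hsa-miR-590-3p 6 lay above both controls and 13 below, with medians of -0.14 and 0.00, where 35.6% and 36.6% of all genes did. Under hsa-miR-199a-3p 12 lay above and 12 below, with medians of -0.04 and 0.18, where 40.2% and 41.9% of all genes did. Sparc, a collagen-binding glycoprotein with the most reads in mock of that list, stood at -0.22 and -0.17 with hsa-miR-590-3p and at 0.14 and 0.19 with hsa-miR-199a-3p. Of 11 degradation genes none met it, and Timp2, an inhibitor of matrix metalloproteinases, stood at 0.15 and -0.04, and at 0.38 and 0.19. Of 12 fibril-associated genes 1 met it with hsa-miR-199a-3p. This was Fmod, fibromodulin, a proteoglycan that binds type I fibrils, with 1570 reads with hsa-miR-590-3p and 3090 with hsa-miR-199a-3p, against 977 with cel-miR-67 and 611 in mock, and log2 ratios of 1.39 and 1.93 with hsa-miR-199a-3p. The most abundant of that list, Fn1, fibronectin, stood at -0.34 and -0.11 with hsa-miR-590-3p and at -0.91 and -0.68 with hsa-miR-199a-3p.

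Of 16 basement-membrane partners (laminins, nidogens, perlecan and others) none met the criterion under either microRNA, and Hspg2, perlecan, stood at -0.16 and 0.11 with hsa-miR-590-3p and at -0.21 and 0.06 with hsa-miR-199a-3p. Between the controls 12 of these 16 were higher with cel-miR-67 than in mock, with a median of 0.22, where 50.3% of all genes were higher. One of them, Lamc3, a laminin γ chain, was past 2-fold with 184 reads with cel-miR-67 against 73 in mock. As 0.652% of all genes were 2-fold higher between the controls, 1 gene of a list is a small count to read. All 12 fibril-associated genes were also higher with cel-miR-67 than in mock, with a median of 0.19. Among them Prelp, a proteoglycan that links basement membranes to collagen, was past 2-fold with 1375 reads with cel-miR-67 against 434 in mock. Likewise higher were 22 of the 29 collagen genes, with a median of 0.39, and 23 of 30 biosynthesis and crosslinking genes, with 0.16. The counts were 6 of 11 for degradation, 4 of 7 for receptors and 11 of 18 for TGF-beta signalling. Of 7 collagen receptors none met the criterion under either microRNA, and Itgb1, the β1 integrin, stood at -0.11 and -0.15 with hsa-miR-590-3p and at -0.37 and -0.40 with hsa-miR-199a-3p. Of 18 genes of TGF-beta signalling, a main inducer of collagen genes, none met it. Ccn2, the connective tissue growth factor, stood at -0.28 and -0.13 with hsa-miR-590-3p and at -0.81 and -0.66 with hsa-miR-199a-3p. With hsa-miR-199a-3p 0 of the 7 receptors lay above both controls and 5 below both. Of the 18 TGF-beta genes 5 lay above and 10 below, and of the 12 fibril-associated genes 4 and 7. Of the 16 basement-membrane partners 8 lay above and 6 below, and of the 11 degradation genes 5 and 2. Over all genes 40.2% lay above and 41.9% below. In the direct comparison of the microRNAs, Adamts3, a procollagen protease (1.78, 1.55% of reads in a single record), Dcn, decorin (1.05, 6.76%), Aspn, asporin (1.05, 4.95%), and Lamc3 (1.19) were past 2-fold and higher with hsa-miR-590-3p, as were 2.71% of all genes.

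Markers of several cell types were present. All 10 cardiomyocyte markers passed the minimum of 1 CPM. Their summed levels were 38067 CPM with hsa-miR-590-3p and 38069 CPM with hsa-miR-199a-3p, against 49651 CPM with cel-miR-67 and 55686 CPM in mock. Myh6, Actc1 and Myh7 hold much of these sums, and single markers parted between the microRNA libraries. Tnnt2 had 4095.5 CPM with hsa-miR-590-3p but 5189.9 CPM with hsa-miR-199a-3p, while Pln had 1133.7 and 597.3 CPM in that order. Only 0.0018% of the Tnnt2 reads and 4.08% of the Pln reads were placed in a single record. In the direct comparison of the microRNA libraries 5 of the 10 markers were higher with hsa-miR-590-3p and 5 lower, where 50.4% and 49.6% of all genes were. With each microRNA 7 of the 10 lay below both controls and 2 above both. Over all genes 36.6% lay below and 35.6% above with hsa-miR-590-3p, and 41.9% and 40.2% with hsa-miR-199a-3p. Ryr2 and Pln were at least 2-fold below both controls with hsa-miR-199a-3p, as were 2.34% of all genes. Of 11 fibroblast markers 10 passed, with sums of 1245 CPM with hsa-miR-590-3p and 849 CPM with hsa-miR-199a-3p, against 1583 CPM with cel-miR-67 and 1353 CPM in mock. The cultures labelled as cardiomyocytes thus also hold RNA of fibroblast genes. Postn and Lox hold much of this sum, and the median of the 10 markers was -0.11 against cel-miR-67 and 0.20 against mock with hsa-miR-590-3p, where the sums stood at -0.35 and -0.12. With hsa-miR-199a-3p the medians were -0.55 and -0.13, and the sums stood at -0.90 and -0.67. In that library 7 of the 10 fibroblast markers lay below both controls and 2 above both. Postn alone of the 10 was at least 2-fold below both. It had 146.4 CPM there, against 607.2 CPM with cel-miR-67 and 445.7 CPM in mock, with 2.49% of its reads placed in a single record. All 8 smooth muscle and pericyte markers passed, with sums of 5142 CPM with hsa-miR-590-3p and 6435 CPM with hsa-miR-199a-3p, against 5401 CPM with cel-miR-67 and 4494 CPM in mock. Acta2 held 4591 of the 6435 CPM with hsa-miR-199a-3p. Of the 8 markers 4 lay above both controls and 3 below both in that library, where 40.2% and 41.9% of all genes did. Rgs5, on 43 to 86 reads per library, was at least 2-fold below both controls there. Ddr2 and Lox stand in both a marker list and a list of collagen partners. All 7 endothelial markers passed, with sums of 265.5 CPM with hsa-miR-590-3p and 239 CPM with hsa-miR-199a-3p, against 253 CPM with cel-miR-67 and 300.3 CPM in mock. All 6 epicardial and mesothelial markers passed, with sums of 329.5 CPM with hsa-miR-590-3p and 267 CPM with hsa-miR-199a-3p, against 228 CPM with cel-miR-67 and 352 CPM in mock. The macrophage sum, with 4 of 6 markers past the minimum, was 6.85 CPM with hsa-miR-590-3p and 8.09 CPM with hsa-miR-199a-3p, against 9.00 CPM with cel-miR-67 and 19.02 CPM in mock. Of 5 chondrocyte markers 2 passed, Sox9 and Acan, and Matn1 had no read in any library. None of 5 Schwann and glial markers passed, and Sox10 had no read. The part of these markers in the collagen ratios was not tested.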

How the data were processed

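RNA was measured in 4 libraries, grouped by the treatment in the labels. Per the file headers, each deposited table lists for every RefSeq record the total read count, the count of uniquely placed reads, and RPKM that the authors derived from total reads. CASAVA 1.8 and mm8 are named in the submitters' processing notes without a role, and which program mapped the reads is not given in those notes. Total reads were summed over the records of a gene, since reads shared by records are counted in the total. Genes were named from a RefSeq table by accession for 27926 records and from the files for 8139, and collagen genes by the symbol in the files. Of the 43 collagen genes 6 have 2 records.

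Libraries were scaled by TMM (edgeR 4.0.16, R 4.3.3), then compared as log2 ratios of CPM after adding a prior count of 0.5, among genes averaging 1 CPM or more. With 0 residual degrees of freedom no p-value was computed. With a microRNA a gene had to differ 2-fold or more from each control in the same direction, and for the other comparisons 1 ratio was used. Intervals are exact conditional binomial (Clopper-Pearson) 95% intervals. Python 3.11.15 with numpy 2.4.6, pandas 2.3.3, scipy 1.17.1 and matplotlib 3.10.9 was used, and the ratio step was tested on simulated data. All collagen genes past the minimum are named. The most abundant gene of each class and genes past 2-fold on at least 50 reads are given with reads and interval. Partner lists are represented by the member with most reads in mock and up to 4 members past 2-fold. The collagen genes, lists and criterion were chosen with earlier results of these data known. Alternatives were other scalings, minimum levels, unique reads, the largest record, RPKM, another prior count and the mean of both controls.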

Additional observations from a re-analysis of the deposited data

How the results depend on the processing

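No paired analysis was possible because each condition is 1 library and the labels give no replicate numbers. For the same reason no replicate was left out. Median-of-ratios scaling and a prior count of 2 left all counts of 2-fold collagen genes as reported. Between the controls the 1 gene higher with cel-miR-67, Col19a1, was joined by Col4a3, for a count of 2, with scaling by library totals, uniquely placed reads, the largest record per gene and the authors' RPKM. The count was 0 at a minimum of 5 CPM, since Col19a1 is below it, and 4 with no minimum, where 2 genes were lower. With no minimum, 2 genes were higher (Col13a1 and Col9a2) and 1 lower (Col28a1) than both controls with hsa-miR-199a-3p, and 1 was higher and 1 lower in hsa-miR-590-3p against hsa-miR-199a-3p. Uniquely placed reads also gave 2 higher (Col13a1 and Col9a2) with hsa-miR-199a-3p and 1 lower between the microRNAs, where 31 genes pass the minimum. Against the mean of both controls, 1 gene was higher with hsa-miR-590-3p (Col27a1), and 1 was higher (Col6a6) and 2 lower (Col4a3 and Col7a1) with hsa-miR-199a-3p. The share of all genes past 2-fold was not computed under these other settings, so these counts have no background to be read against.

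The collagen share of reads, given for hsa-miR-590-3p, hsa-miR-199a-3p, cel-miR-67 and mock in turn, was 3.26%, 3.33%, 3.28% and 2.90% of uniquely placed reads. It was 2.46%, 2.51%, 2.47% and 2.16% with the largest record per gene, and 0.952%, 0.921%, 0.917% and 0.802% of summed RPKM. Mock was the lowest in each. Scaling by library totals moved the median of all genes for hsa-miR-199a-3p against mock to 0.10. The fibrillar median for cel-miR-67 over mock, 0.06, ranged from -0.01 to 0.10 over the settings, and the median of all collagens for hsa-miR-199a-3p against cel-miR-67, -0.07, from -0.07 to 0.25. The type IV median for cel-miR-67 over mock stayed within 0.48 to 0.51. Of 29 genes over these settings, 9 had a ratio that lay on either side of 0 in 1 comparison: Col12a1, Col1a2, Col5a1 and Col6a3 for hsa-miR-590-3p against mock, Col18a1 against cel-miR-67, Col14a1, Col4a1 and Col4a5 for hsa-miR-199a-3p against mock and Col6a1 against cel-miR-67.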

Other observations

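A collagen gene listed in the files under an older symbol, Emid2 (now Col26a1), lies outside the naming used above. It had 73 reads with hsa-miR-590-3p, 51 with hsa-miR-199a-3p, 58 with cel-miR-67 and 17 in mock. A predicted record described as similar to the α5 chain of type VI collagen had 6, 5, 1 and 0 reads in the same order of libraries.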
